A study of Oryza sativa with 6 samples.

Results

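miR1320 and miR810 are miRNA families annotated in rice, and their small RNAs were measured in leaves of the glyphosate-tolerant rice CA21. All table entries named miR1320, MIR1320, miR810 or MIR810, of either arm, were taken, which gave 5 of the 479 miRNAs listed, 2 of miR1320 and 3 of miR810. The entries osa-miR1320-3p_L-1R+1 and osa-MIR810b-p3 led this choice and were selected on their normalized read values, which were known to be higher in sprayed leaves. The difference between sprayed and unsprayed leaves is thus a description for these miRNAs, and no p-value is given for it.

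The data comprised 6 small RNA libraries, 3 from CA21 seedlings sprayed with glyphosate at 2 mg per ml at the third-leaf stage (GLY) and 3 from CA21 seedlings left without treatment (CK). CA21 is a germplasm without a transgene, bred from Zhejing30 after irradiation and chemical mutagenesis and crossed with the glyphosate-sensitive rice P1003, and both groups share this background. Leaves were collected once the sprayed P1003 plants had died. Whether replicate libraries stem from separate plants is not stated in the labels, and the spread between them may be technical.

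Plant miRNAs are cut from both arms of a hairpin RNA, and the strand that is loaded into an Argonaute protein guides the cleavage or repression of mRNAs that pair with it along most of its length. The first base of the strand helps to decide which Argonaute protein takes it up, and strands that start with U mostly enter AGO1. Glyphosate blocks the shikimate pathway, which makes the aromatic amino acids. miR1320 has been linked in rice to cold tolerance through an ethylene response factor gene that it targets, while no function is given here for miR810. That link is not assigned here to either arm of miR1320 or to the variants listed below.

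The sequences of all 5 small RNAs are shown because the arms and the ends of these molecules define the entries, with bases 2 to 8 (the seed) in capitals and U written as T as in the table.
osa-miR1320-5p_L-1R+1: gGAACGGAggaattttatagg
osa-miR1320-3p_L-1R+1: gTAAAATTcattcgttccaat
osa-MIR810b-p5: tCACTTGAtgacgacgtatatc
osa-MIR810b-p3: tAGTGAACaccgatatgcgtc
osa-miR810a: tCATAAGCccaccacatgtgg

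The sequences were distinct from each other and from the rest of the table. No seed was shared between the members, and for each member 0 other miRNAs of the table had its seed. The nearest other sequence of the table lay 7 edits away from osa-miR1320-3p_L-1R+1, 9 from osa-miR1320-5p_L-1R+1 and 8 from each of the miR810 members, where an edit is a substituted, inserted or deleted base. Each member was listed once and its sequence carried 1 name. Each member value above 0 was a whole number of reads within 0.01 of a read, so reads did not appear to have been divided between these and other entries.

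The length was 21 nt for 4 members and 22 nt for osa-MIR810b-p5, and 21 nt was also the commonest length in the table (42.0% of the 479 miRNAs). The miR810 members began with T, as did 38.8% of all miRNAs, and both miR1320 members began with G, as did 15.4%. The suffix L-1R+1 of both miR1320 entries means that the molecule lacked 1 base of the miRBase sequence at the 5′ end and carried 1 more at the 3′ end. The GC content was lowest in osa-miR1320-3p_L-1R+1 at 28.6% and highest in osa-miR810a at 52.4%.

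The arms of miR1320 fitted together as a duplex. In the best antisense alignment without gaps, 18 positions faced each other, of which 15 were Watson-Crick pairs, 2 were G-U pairs and 1 was not paired, with bases 1 to 18 of the 5′ arm opposite bases 18 to 1 of the 3′ arm. The miR810b sequences did not face each other along their length. There, bases 13 to 22 of osa-MIR810b-p5 lay opposite bases 21 to 12 of osa-MIR810b-p3, over 10 positions with 9 Watson-Crick pairs and 1 G-U pair. osa-miR810a differed from osa-MIR810b-p3 by 11 edits and from osa-MIR810b-p5 by 12, so the entries joined under the number 810 were not variants of one sequence.

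The values are the authors' normalized reads per miRNA, called the normalized read value below. The sum over all miRNAs ranged from 136071 to 177269 per library, and what 1 read was worth ranged from 0.541 in CK 3 to 1.72 in GLY 3, which corresponds to 97902 to 304753 miRNA reads. Replicate values are listed below in the order 1 to 3. In the paper's read summary, valid reads made up a smaller share of the raw reads in each GLY library than in any CK library. What this means for the member values was not tested. The second GLY library, GLY 2, stood apart. Sequences of 24 nt made up 35.4% of its summed value against 6.99% to 15.2% in the other 5 libraries, and sequences of 21 nt 39.1% against 62.1% to 78.4%. Across the 251 miRNAs tested, which are not independent of each other, log2 values correlated at 0.640 between GLY 2 and GLY 1 and at 0.557 between GLY 2 and GLY 3, but at 0.928 between GLY 1 and GLY 3. Entries on a fixed list of miRBase numbers that match rRNA or tRNA fragments (5 miRNAs) took 0.0768% to 0.209% of the CK libraries. In the GLY libraries their share was 0.611%, 0.0969% and 1.11%, so it was high in GLY 1 and GLY 3 only. These shares cover the listed numbers only and are no total of such fragments. The reproductive triggers miR2118 and miR2275 (6 entries) took 0.0604% to 0.0944% of CK and 0.221%, 0.0261% and 0.347% of GLY, mostly from 1 entry that is not a mature trigger. The mature osa-miR2118e, at 4.82 to 8.37 for CK, was listed at 0 for every GLY library. So were osa-miR2118o_1ss1CT and osa-miR2118d_1ss17TA, each at 7.45 to 10.1 for CK. The entries gma-miR2118a-3p_R+1 and zma-miR2275b-5p_1ss12CG went the other way, at 0 for every CK library and at 25.8 and 10.3 in GLY 3 only. All these values are low, and an entry at 0 is not shown to be without reads. The differences between the groups are therefore also given without GLY 2, and the part of the rRNA, tRNA and trigger entries in them was not tested. A lower value in a leaf sample can mean fewer cells that make the miRNA or fewer copies per cell, and these cannot be told apart.

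The sequence from the 3′ arm of miR810b was the most abundant member. The CK libraries held osa-MIR810b-p3 at 207, 197 and 260, and the GLY libraries held it at 828.4, 589 and 786. Between 225 reads (CK 2) and 942 reads (GLY 1) stood behind each value. Every GLY library lay above every CK library, and the lowest of the GLY values, in GLY 2, was 2.26 times the highest CK value, in CK 3. The mean was 221 ± 33.7 (SD, n = 3) in CK and 734 ± 128 in GLY, a 3.32-fold difference, or 3.65-fold without GLY 2. The spread was alike in the groups, with a coefficient of variation of 15.2% in CK and 17.4% in GLY. Among the miRNAs above 0 in a library it ranked 69 of 337, 73 of 326 and 69 of 370 in CK and 30 of 323, 47 of 362 and 31 of 258 in GLY, so it stood nearer to the top of the list in each GLY library than in any CK library.

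The small RNA of the 5′ arm was less abundant. Values of osa-MIR810b-p5 were 35.2, 37.7 and 47.0 for the CK libraries, against 114, 156.9 and 70.5 for the GLY libraries. The groups did not overlap, but the gap was narrower than for the 3′ arm, since the lowest GLY value (GLY 3) was 1.50 times the highest CK value. Its mean was 40.0 ± 6.22 (SD, n = 3) in CK and 114 ± 43.2 in GLY, a 2.85-fold difference, or 2.31-fold without GLY 2. Here GLY 2 was the highest library, whereas it was the lowest GLY library for the 3′ arm. Among the 251 miRNAs tested, GLY 2 was the highest GLY library for 48.2% and the lowest for 43.0%.

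The third miR810 entry, osa-miR810a, was listed at 0 in all CK libraries and in GLY 1 and GLY 2, and at 12.0 in GLY 3, which stood for 7 reads. It failed the filter on low values, which asked for 3 libraries at 10 or more, and was not tested. Few entries lay under 5 reads (13 to 21 per library), so the table seems to omit small counts, and an entry at 0 is not shown to be without reads. The summed miR810 value was 261 ± 39.7 (SD, n = 3) in CK and 852 ± 99.7 in GLY, a 3.26-fold difference, or 3.46-fold without GLY 2, that was carried by osa-MIR810b-p3.

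**Figure D1:**
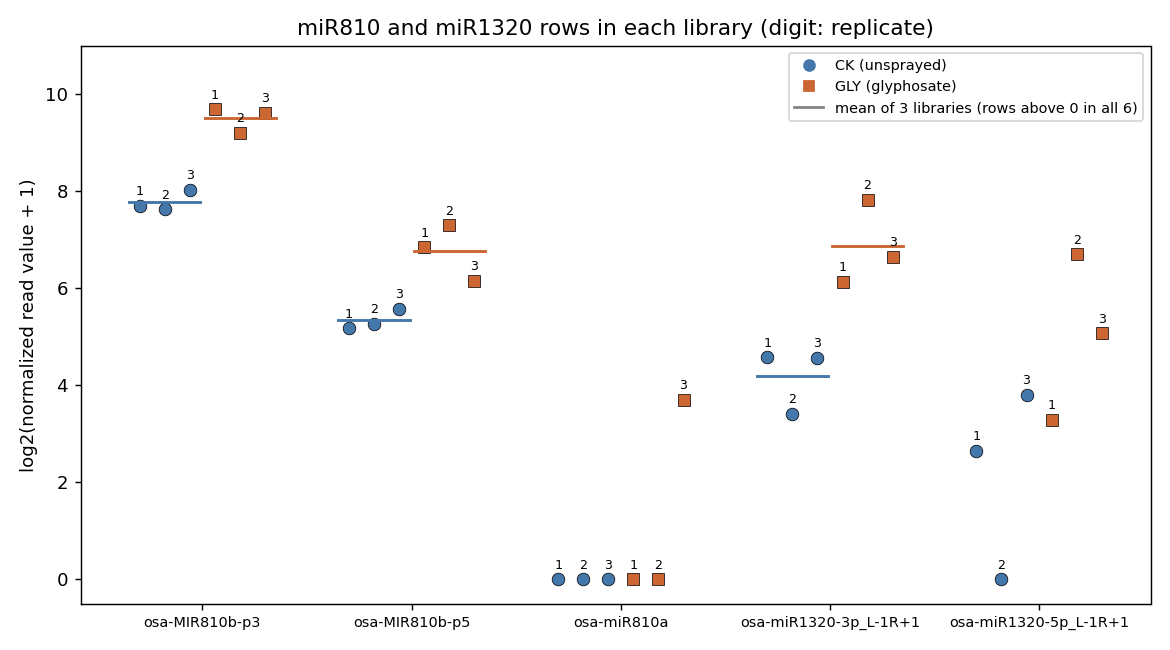
Normalized read value of each of the 5 members in each library on the log2(value + 1) scale (vertical axis), with blue circles for CK, orange squares for GLY, replicate numbers above the points and lines at the group mean on this scale for the 3 members above 0 in all 6 libraries. The groups are apart for osa-MIR810b-p3, osa-MIR810b-p5 and osa-miR1320-3p_L-1R+1, while osa-miR1320-5p_L-1R+1 overlaps and osa-miR810a is above 0 only in GLY 3.

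The 3′ arm of miR1320 was scarce in unsprayed leaves. Its entry, osa-miR1320-3p_L-1R+1, had values of 22.9, 9.64 and 22.7 for CK, against 69.5, 226 and 99.8 for GLY. Every GLY library again lay above every CK library, and the lowest GLY value, in GLY 1, was 3.03 times the highest CK value. The mean was 18.4 ± 7.60 (SD, n = 3) in CK and 132 ± 82.8 in GLY. This 7.15-fold difference leaned on GLY 2 and fell to 4.60-fold without that library.

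The reads behind these values were few. osa-miR1320-3p_L-1R+1 had 26, 11 and 42 reads in the CK libraries and 79, 151 and 58 in the GLY libraries. The exact Poisson intervals (95%, covering counting error only, since reads without molecular identifiers are not independent molecules) were 15.0 to 33.6 in CK 1 and 4.81 to 17.3 in CK 2. In GLY 2 the interval was 191 to 265, above those of GLY 1 (55.0 to 86.6) and GLY 3 (75.8 to 129). The coefficient of variation was 41.3% in CK and 62.9% in GLY, against 15.2% and 17.4% for osa-MIR810b-p3.

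The 5′ arm of miR1320 did not separate the groups. The values of osa-miR1320-5p_L-1R+1 were 5.29, 0 and 13.0 for CK, against 8.79, 103 and 32.7 for GLY. GLY 1 lay below CK 3, and GLY 2 lay far above the other libraries. These values stood for at most 24 reads in CK and for 10, 69 and 19 reads in GLY. Without GLY 2 the entry failed the filter on low values. The summed miR1320 value was 24.5 ± 13.4 (SD, n = 3) in CK and 180 ± 132 in GLY, a 7.34-fold difference, or 4.30-fold without GLY 2. Both arms of miR1320 and the 5′ arm of miR810b were thus highest in GLY 2. That library was the highest GLY library for 48.2% of the 251 miRNAs tested. It was also the library rich in 24-nt sequences, and what this means for the member values was not tested.

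All members are counted as whole molecules of nearly equal length, but adaptor ligation and PCR also depend on the sequence, so the order of the read values need not be that of the molecules in the leaf. In CK the order of the normalized read values was osa-MIR810b-p3, osa-MIR810b-p5, osa-miR1320-3p_L-1R+1, osa-miR1320-5p_L-1R+1 and osa-miR810a. Neighbours did not overlap in CK at the first steps, with the lowest osa-MIR810b-p3 value (197) above the highest of osa-MIR810b-p5 (47.0), and the lowest of osa-MIR810b-p5 (35.2) above the highest of osa-miR1320-3p_L-1R+1 (22.9). The arms of miR1320 overlapped, at 9.64 to 22.9 and 0 to 13.0. In GLY, osa-miR1320-3p_L-1R+1 (69.5 to 226) and osa-MIR810b-p5 (70.5 to 156.9) overlapped. The ratio of osa-MIR810b-p3 to osa-miR1320-3p_L-1R+1 was 9.04, 20.5 and 11.5 in CK and 11.9, 2.61 and 7.88 in GLY, so the ratio in GLY 2 was below that in each other library.

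The balance of the arms was described from the reads. The share of osa-MIR810b-p3 among the reads of both miR810b sequences was 85.5%, 84.0% and 84.7% for CK, against 87.9%, 79.0% and 91.8% for GLY, out of 268 to 1072 reads per library. The exact Clopper-Pearson intervals (95%) of the CK shares together spanned 79.0% to 89.4%. In GLY the shares lay on both sides of the CK shares, with intervals of 75.1% to 82.5% in GLY 2 and 89.0% to 94.0% in GLY 3. These intervals cover counting error only and are no test between libraries. For miR1320 the 3′ arm took 81.2% of 32 reads in CK 1 and 63.6% of 66 reads in CK 3, and no share is given for CK 2, where the 5′ arm was listed at 0. For GLY it took 88.8%, 68.6% and 75.3% of 89, 220 and 77 reads. The groups overlapped, and the 3′ arm was the larger one in each library with a share for both hairpins.

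**Figure D2:**
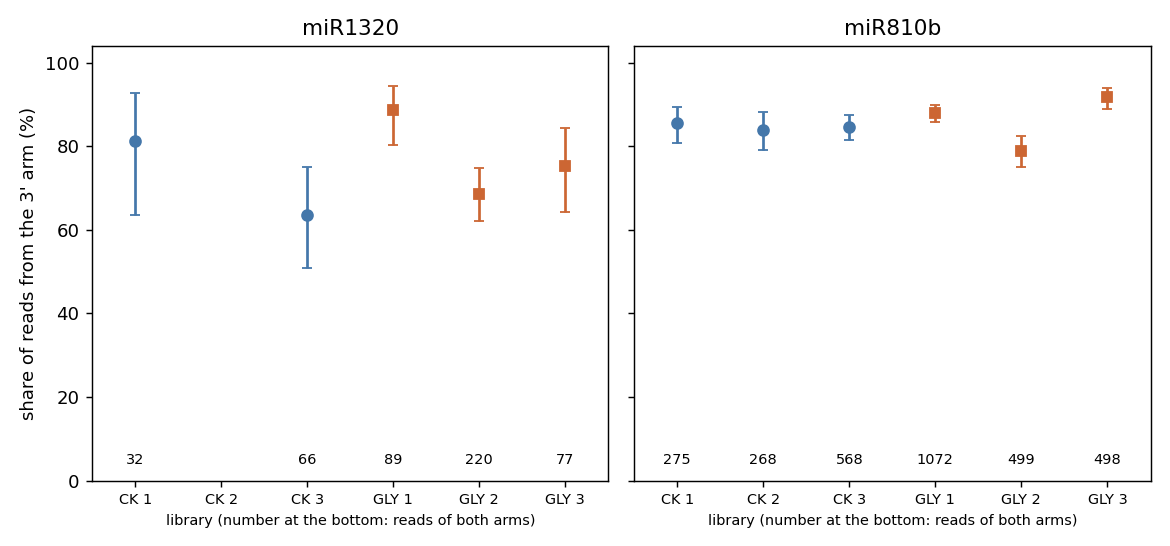
Share of reads from the 3′ arm (vertical axis, percent) in each library for miR1320 (left) and miR810b (right), with exact Clopper-Pearson 95% intervals as bars and the reads of both arms at the bottom. The miR810b shares are 84.0% to 85.5% in CK and 79.0% to 91.8% in GLY, and those of miR1320, with none for CK 2, rest on 32 to 220 reads.

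The comparison of GLY with CK asked which miRNAs differ in abundance after spraying, and the members were placed in it for orientation. With limma on log2(value + 1), 2 of the 4 members that passed the filter were called higher at an adjusted p under 0.05, osa-MIR810b-p3 and osa-miR1320-3p_L-1R+1, and 0 lower, while 7.57% of the 251 miRNAs tested were called higher and 3.59% lower. These 2 were chosen with that call known, so nothing is read from the count. The values of GLY lay above those of CK without overlap for 3 of the 4 members, against 13.9% of the 251 miRNAs. Of these 3, 2 are the entries that led the choice and the other is the 5′ arm of miR810b. Nothing is therefore read from this count or from the ranks that follow. By adjusted p, osa-MIR810b-p3 was number 10 of the 28 called miRNAs and osa-miR1320-3p_L-1R+1 number 28, the last inside the threshold, with osa-miR166k-3p the first outside it.

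The log2 fold change (GLY minus CK, of log2(value + 1)) was 1.72 ± 0.29 (SE) for osa-MIR810b-p3, 1.42 ± 0.42 for osa-MIR810b-p5, 2.69 ± 0.62 for osa-miR1320-3p_L-1R+1 and 2.87 ± 1.34 for osa-miR1320-5p_L-1R+1, while the median of all 251 miRNAs was -0.46. Without GLY 2 it was 1.87, 1.16 and 2.21 for the first 3 of these, beside a median of -0.63 for all 234 miRNAs then tested. That of osa-miR1320-5p_L-1R+1 rested on a CK 2 library at 0 and moved most, to 1.79 without CK 2, 3.74 without GLY 1 and 1.98 with 5 in place of 1 added to the values. By size of the log2 fold change they were numbers 26, 31, 13 and 12 of the 251. The standard errors followed the spread between libraries, with that of osa-MIR810b-p3 the smallest of the 4. In the sums by family, the miR810 family was called (log2 fold change 1.70 ± 0.29) and the miR1320 family was not (2.75 ± 0.76), while 7.87% of the 89 families tested were called higher and 1.12% lower. The leading entries, which were chosen on these values, make up most of both sums, so nothing is read from these calls. The family calls also turned with the libraries. Without GLY 2 both families were called (1.80 for miR810 and 2.19 for miR1320), and without CK 1, CK 2, CK 3, GLY 1 or GLY 3 neither was, at 1.63 to 1.83 for miR810 and 2.21 to 3.22 for miR1320.

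The calls of the members depended on the libraries used. Without CK 1, CK 2, CK 3, GLY 1 or GLY 3, none (0) was called by limma. Among all miRNAs, 5 of 236, 2 of 237, 9 of 238, 1 of 240 and 1 of 240 tested were called in these fits, in that order. The members with an unadjusted p under 0.05 numbered 2 or 3 in each of these fits, and since they were chosen on the same values nothing is read from that number. Without GLY 2, 3 of the 3 members tested were called higher (both miR810b sequences and osa-miR1320-3p_L-1R+1), and so were 14.1% of the 234 miRNAs tested. Nothing is read from this number either, for the same reason.

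**Figure D3:**
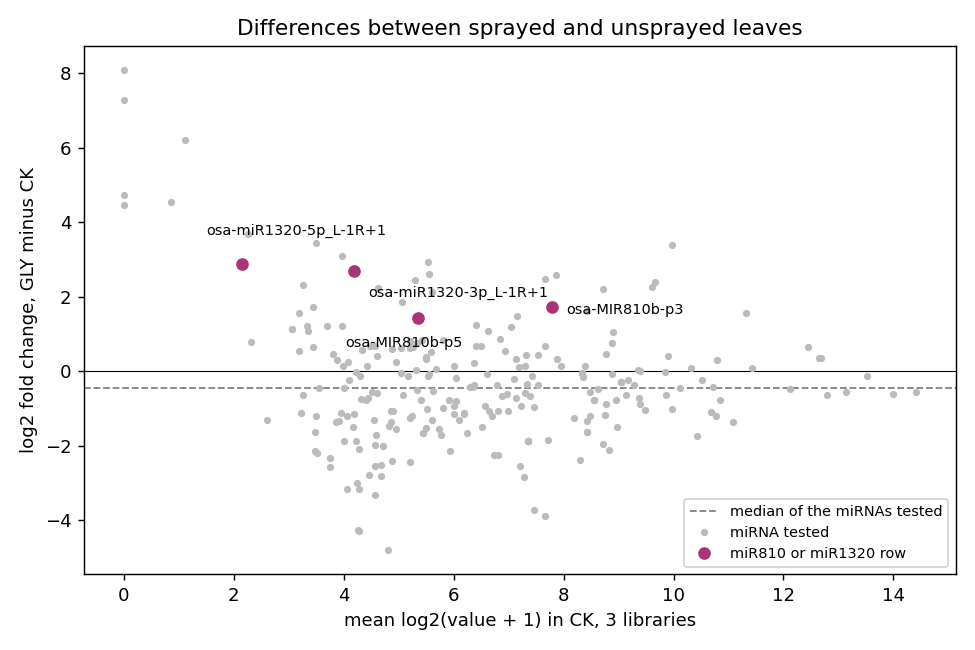
Log2 fold change (GLY minus CK) against the mean log2(value + 1) in CK for the 251 miRNAs tested (grey) and the 4 tested members (purple), with the median of all at the dashed line. The members lie between 1.42 and 2.87, above the median of -0.46, and the miR1320 arms lie at lower CK levels than the miR810b sequences.

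miRNAs outside the families that flowering plants share were mostly not called, as were most of the 251 tested, of which 11.2% were called in either direction. Of the 188 other miRNAs with such a number, a list that was set with earlier results of these libraries known, 90 were tested, 2 were called higher and 1 lower by limma, and their median log2 fold change was -0.42 beside -0.46 for all 251. The called ones were osa-miR1432-5p_R+1 (10.5-fold higher), osa-miR528-5p (4.88-fold higher), which targets copper proteins, and osa-MIR1851-p3_1ss11AG, with CK values of 20.3, 25.4 and 38.4 and a listing at 0 for every GLY library. Of the families shared across flowering plants, 15 of 123 tested miRNAs were called higher and 8 lower, with a median of -0.58. Without GLY 2 the numbers were 7 higher and 34 lower outside the shared families, and 21 higher and 35 lower within them. They fell to 1 and 0 outside the shared families without CK 2, GLY 1 or GLY 3. Within the shared families they fell to 2 and 1 without CK 1, 1 and 0 without CK 2, 6 and 1 without CK 3, and 0 and 0 without GLY 1 or GLY 3, where 32 and 46 had an unadjusted limma p under 0.05.

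The miRNAs with the pattern most like that of each leading member were found from log2(value + 1) over the 6 libraries, centred on its own mean, by the root mean square difference between profiles. For osa-MIR810b-p3 the nearest was osa-MIR6251-p3, with a difference of 0.15, against a median of 1.47 over all other tested miRNAs. Values of osa-MIR6251-p3 were 7.93, 8.77 and 13.5 for CK, against 36.1, 26.9 and 43.0 for GLY. Like osa-MIR810b-p3, it was lowest among the GLY libraries in GLY 2 and highest among the CK libraries in CK 3, though at a level far below it. Values this low rest on few reads. For osa-miR1320-3p_L-1R+1 in CK 2, a value of 9.64 stood for 11 reads, with a Poisson interval of 4.81 to 17.3. The closeness of the 2 profiles was not tested against counting error. Next came osa-miR156a_L+1 (0.28), whose family targets SPL transcription factors, osa-miR528-5p (0.28), osa-MIR397a-p5 (0.34), whose family targets laccases, and osa-miR535-3p (0.36).

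For osa-miR1320-3p_L-1R+1 no profile came as close. The nearest were osa-MIR397b-p5 (0.55), osa-miR156f-3p (0.71), osa-miR1432-5p_R+1 (0.75), osa-MIR397b-p3 (0.75) and osa-miR528-5p (0.78), with a median of 1.85 over all other tested miRNAs. Of these, osa-MIR397b-p5 shared the highest GLY value in GLY 2, at 2498 against 1884 and 1544 in GLY 1 and GLY 3, and osa-miR156f-3p did so at 250.98 against 156.97 and 243. The 5′ arm of miR1320 was number 12 in this order (0.93) and osa-MIR810b-p3 number 9 (0.87). osa-MIR810b-p5 was number 10 for osa-MIR810b-p3 (0.48) and number 6 for osa-miR1320-3p_L-1R+1 (0.84). All these profiles are set largely by the step between CK and GLY, which was also what led to the choice of the members.

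**Figure D4:**
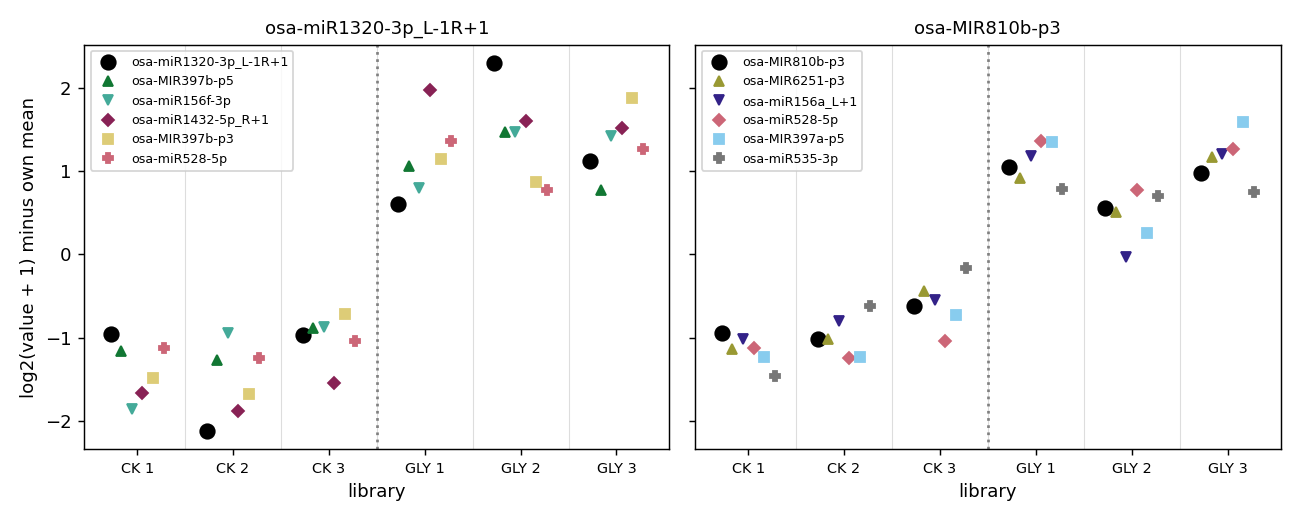
Centred profiles, as log2(value + 1) minus the own mean of each miRNA (vertical axis), over the 6 libraries for osa-miR1320-3p_L-1R+1 (left) and osa-MIR810b-p3 (right), each as black circles with its 5 nearest miRNAs as coloured symbols. The points of osa-MIR810b-p3 and osa-MIR6251-p3 lie close together (difference 0.15), while osa-miR1320-3p_L-1R+1 lies below its 5 neighbours in CK 2 and above them in GLY 2.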

How the data were processed

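The authors made TruSeq small RNA libraries from total RNA, ran single-end Illumina HiSeq sequencing, took off adaptors, discarded reads under 18 nt and those of rRNA, tRNA and other non-coding RNA, and matched the rest to miRBase 20.0 precursors with ACGT101-miR. The deposited signal is a normalized read value per miRNA and library, and its scaling and the ACGT101-miR version are not given in the sources used here. Of 582 entries, 103 exact repeats were dropped.

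The value of 1 read per library was the largest step of which most values under 60 were whole multiples within 0.01. Of these low values, 78.5% to 83.5% were whole and the rest were not, so the table was not treated as counts. The study used a count model. Here log2(value + 1) of miRNAs at 10 or more in at least 3 libraries was modelled by limma 3.58.1 under R 4.3.3 (trend and robust options, no replicate block) on all 6 libraries, with Benjamini-Hochberg adjustment over all 251 and a threshold of 0.05. Members, lists and the rule for named miRNAs (all members, the 5 nearest profiles of each leading member and the called miRNAs outside the shared families) were chosen with earlier results of these data known. Alternatives were other pseudocounts, filters, scalings, moderation, a replicate block, treatment of repeats and leaving out libraries.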

Additional observations from a re-analysis of the deposited data

How the results depend on the processing

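No direction of a member or of its family reversed in any alternative that tested it. For 3 of the 4 tested members and for both family sums, every GLY library lay above every CK library. Leaving out libraries or changing the pseudocount, filter or moderation could therefore not reverse these directions, and nothing is read from it. The log2 fold change lay between 1.56 and 1.93 for osa-MIR810b-p3 and between 2.44 and 2.89 for osa-miR1320-3p_L-1R+1 in the alternatives with all 6 libraries, while the median of all miRNAs ranged from -0.60 to -0.17 over the scalings. Members called by limma numbered 2 in all. The number was 1 with no filter on low values, 1 when libraries were scaled by the study's valid reads and 1 of 2 tested with a value of 10 or more required in all 6 libraries, a filter that removed both miR1320 entries. It was 3 with median ratio scaling, where osa-MIR810b-p5 was called too. The calls among all miRNAs were 28, and 17 under the stricter filter and 12 by valid reads; those of the 8 families were 2 by valid reads; those in the families shared across flowering plants were 23, and 13 and 9 under these settings. The replicate number as a block gave 6 calls among all miRNAs, 4 families, 4 in the shared families and 0 members (3 had an unadjusted limma p under 0.05, on the values that chose them). The miR810 family lost its call by valid reads and under the block. Whether same-numbered libraries share more than a number is not stated in the labels. Their deviations from the group means correlated at -0.39, 0.094 and 0.47, and not every library correlated best with its own number. With 3 libraries per group, these correlations cannot settle whether the libraries are paired. When 1 library was left out, the calls ranged from 1 to 113 for all miRNAs, 3 to 44 for families, 0 to 3 for members, 1 to 41 outside the shared families and 0 to 56 within them, with the highest number without GLY 2 each time. Leaving out both GLY 2 and CK 3, an alternative chosen after seeing the data, gave 86, 37, 3, 31 and 45. Depth limits miR1320 most, with 11 reads of the 3′ arm in CK 2 and the 5′ arm listed at 0.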
